A study of Drosophila melanogaster with 2 samples.

Results

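Ugalt, frc, sll, Gfr, Efr, meigo and senju are the 7 Drosophila melanogaster genes described here, of 13968 protein-coding genes in the annotation used (Ensembl release 115, BDGP6.54). All encode members of the nucleotide sugar transporter class, proteins of the Golgi or endoplasmic reticulum (ER) membrane that carry activated sugars or activated sulfate. Ugalt was selected because it lies under the strongest peak of the data, so its signal and rank are a description. The other 6 genes are of the same class and were chosen with earlier results of these data known. Counts over them are therefore descriptions too. Gfr is listed in the annotation under the symbol nac, with Gfr as a synonym. For each gene, every peak with its summit within 500 bp of an annotated start, in the gene body or within 2 kb of it was collected. This gave 6 of the 3314 reproducible peaks, and 8 weaker entries of the 30000 in the pooled list.

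The peaks come from chromatin immunoprecipitation followed by sequencing (ChIP-seq) of CG30431, a zinc-finger protein, in whole embryos aged 0 to 24 h with males and females pooled. All embryos were of 1 transgenic strain, CG30431-GFP, which stably expresses CG30431 with green fluorescent protein (GFP) at its C-terminus, and an antibody against GFP was used. There is 1 group with 2 biological replicates, separate biosamples of the same donor line, and no second genotype or condition, so no test between conditions could be made. Each peak is therefore an average over all embryonic tissues and ages, and its target is the tagged protein. The strength of a peak is given below as a signal value deposited by the authors, in a scale that the sources used here do not give. It ranged from 70.8 to 1800 in the reproducible set, with a median of 121, and read depth is unknown.

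Glycosyltransferases in the lumen of the ER and Golgi build sugar chains from nucleotide-bound sugars that are made mostly in the cytosol, and transporters carry those donors across the membrane. In flies, supply of these donors affects the O-linked sugars on Notch, the mucin-type O-glycans and the heparan sulfate chains that shape morphogen signalling. PAPS, the donor of activated sulfate, enters the Golgi by transporters of the same class.

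The genomic sequence under 4 of the 6 reproducible peaks is printed here. They are the strongest peak, both peaks that flank 1 gene, and the one peak with no match to a short core sequence within 150 bp. Each is on the strand of the named gene, 5′ to 3′, from the RefSeq Release 6 genome (dm6), within 145 bp of the summit and outside annotated untranslated regions. Capitals mark CACTG or, on the other strand, CAGTG, a core found in an earlier analysis of these same peaks. The Ugalt stretch is chrX:2703853-2704035 on the minus strand, with the summit at its base 146. The upstream frc stretch is chr3L:17433649-17433867 on the minus strand, with the summit at base 74. The downstream frc stretch is chr3L:17428837-17428935 on the minus strand, with the summit at base 28. The senju stretch is chr2L:5052342-5052632 on the plus strand, with the summit at base 146.
Ugalt: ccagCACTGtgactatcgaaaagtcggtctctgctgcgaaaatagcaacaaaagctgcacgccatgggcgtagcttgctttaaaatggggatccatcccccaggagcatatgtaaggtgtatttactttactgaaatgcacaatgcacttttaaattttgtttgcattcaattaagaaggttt
frc upstream: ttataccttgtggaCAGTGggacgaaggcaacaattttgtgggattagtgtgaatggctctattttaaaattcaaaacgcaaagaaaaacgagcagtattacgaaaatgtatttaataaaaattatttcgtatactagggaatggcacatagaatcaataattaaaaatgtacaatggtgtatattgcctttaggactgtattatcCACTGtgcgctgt
frc downstream: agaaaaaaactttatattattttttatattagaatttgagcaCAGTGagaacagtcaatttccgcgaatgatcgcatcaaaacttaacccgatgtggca
senju: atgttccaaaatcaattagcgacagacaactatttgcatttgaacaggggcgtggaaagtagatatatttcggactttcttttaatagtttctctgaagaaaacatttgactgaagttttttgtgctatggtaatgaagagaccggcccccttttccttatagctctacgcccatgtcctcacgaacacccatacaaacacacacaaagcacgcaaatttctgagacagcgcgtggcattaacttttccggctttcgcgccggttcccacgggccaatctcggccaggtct

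A reproducible promoter peak, with the summit within 500 bp of an annotated start, was present at 2 of the 7 genes (28.6%), Ugalt and senju, beside 12.8% of all protein-coding genes. Without Ugalt, which was chosen by its peak, the count is 1 of 6, and that share (16.7%) is near the background. A reproducible peak in the gene body or within 2 kb was present at 5 of 7 (71.4%), Ugalt, senju, frc, sll and Efr, beside 25.4% of all protein-coding genes and 22.6% of those between 1338 and 4255 bp long, the range of the 7 genes. Without Ugalt the count is 4 of 6, and leaving Ugalt out does not undo the choice of genes with earlier results known. Gfr and meigo held weaker entries only. All 7 had some pooled entry in that window, as did 75.7% of protein-coding genes, so such an entry is common. Of the 6 reproducible peaks, 5 (83.3%) lay within 500 bp of a start of some gene, and 4 of 5 without the Ugalt peak. The share was 44.2% of all reproducible peaks, and 49.1% of the 2908 in or within 2 kb of a protein-coding gene, the window by which these peaks were collected, so nearness to starts is partly set by the choice of peaks. At 4 of the 6 (senju, both frc peaks and Efr), the closest start belonged to a neighbouring gene rather than to the transporter.

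**Figure D1:**
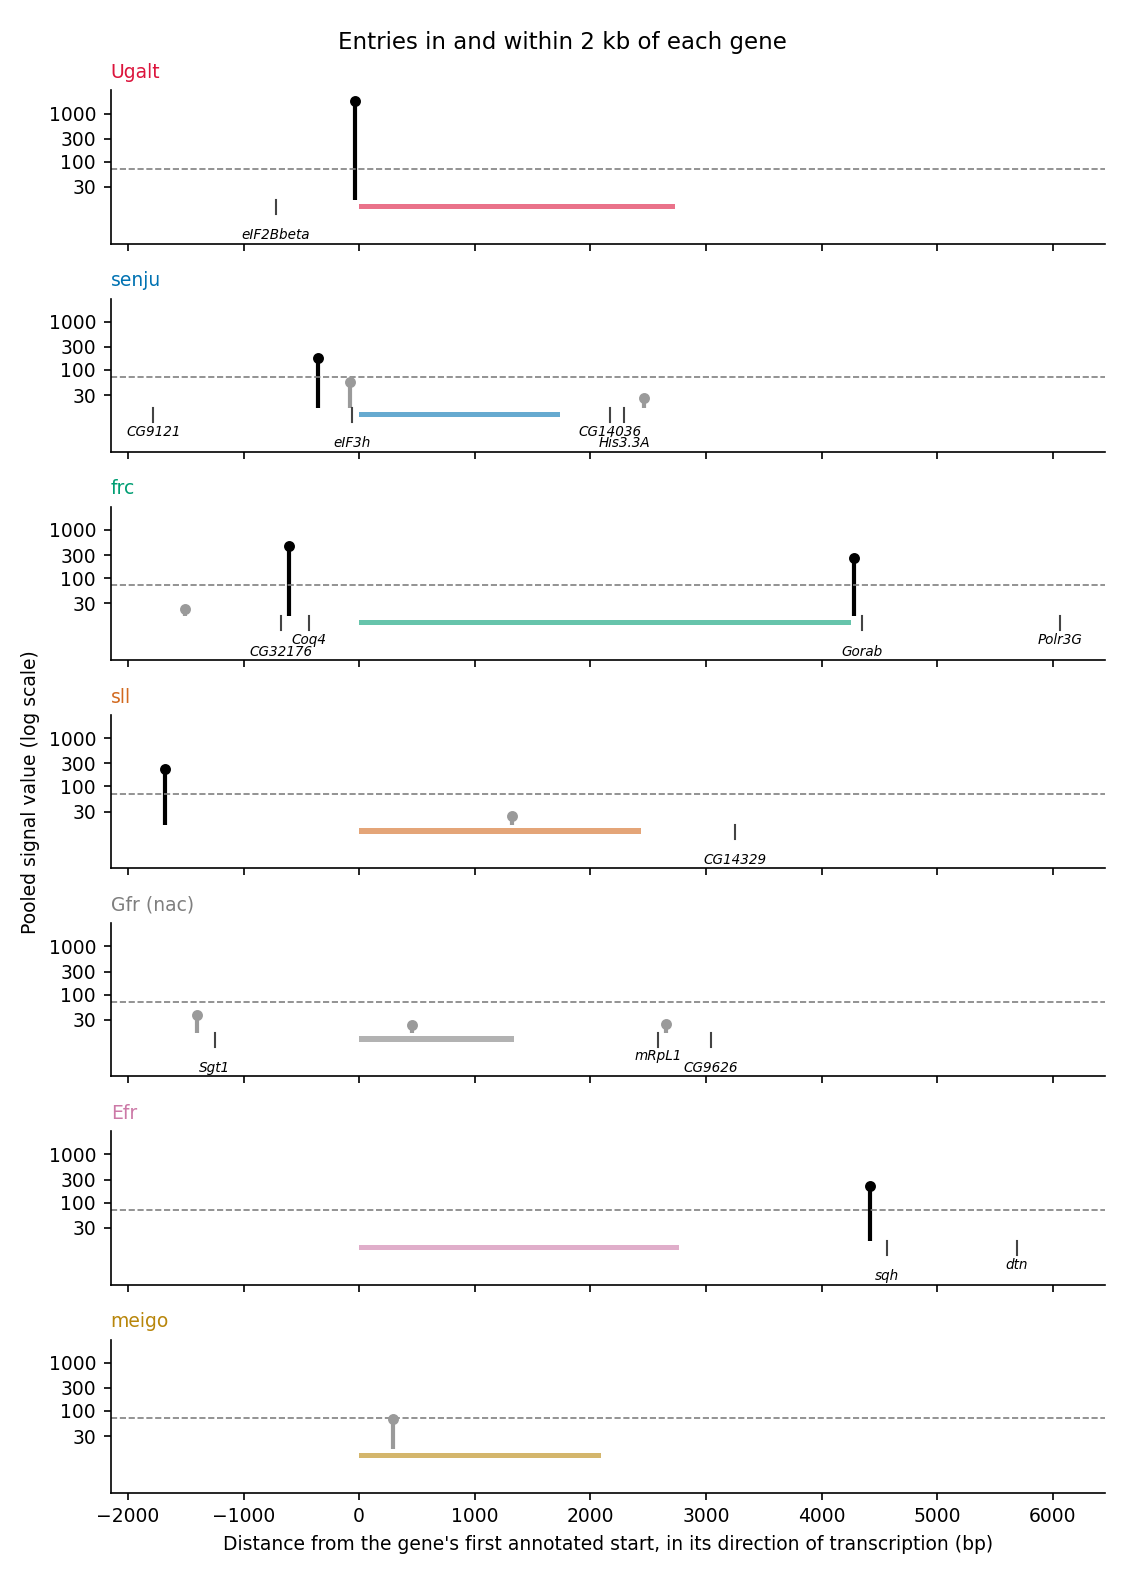
Position and pooled signal of the entries at each gene. The horizontal axis is the distance in bp from the first annotated start in the direction of transcription, the vertical axis the pooled signal value on a log scale, coloured bars the gene bodies and ticks the starts of neighbouring genes. Black stems are reproducible peaks, grey stems weaker pooled entries, and the dashed line is the weakest reproducible peak (70.8). The Ugalt peak stands 38 bp from the start, and the frc, sll, senju and Efr peaks stand farther out.

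Ugalt (FBgn0024994, chromosome X, 2701124 to 2703852, minus strand, dm6) encodes the Golgi transporter of UDP-galactose and UDP-N-acetylgalactosamine, donors for O-glycans and glycolipids. Its peak spanned 2703705 to 2704063, and the summit at 2703890 lay in intergenic sequence 38 bp upstream of the first of its 2 annotated starts and 145 bp upstream of the other. The signal was 977 in replicate 1, 833 in replicate 2 and 1800 in the pooled list. It ranked 1 in all 3 lists, and the replicate summits were 10 bp and 0 bp from the pooled summit. The only other gene with a start within 2 kb of the summit was eIF2Bbeta, a subunit of a translation initiation factor, which begins 681 bp away on the opposite strand. The nearest other reproducible peak was 39422 bp away, against a median spacing of 5726 bp and an upper quartile of 16911 bp over the set. The strongest reproducible peak on the older build dm3 was also on X, with the same width of 359 bp, the same summit offset of 185 bp and a signal of 1800.

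The lead of the Ugalt peak was small. The second peak, 109 bp upstream of CG14100 on 3L, had a pooled signal of 1786, which is 0.823% lower, with 962 and 831 in replicates 1 and 2. The Ugalt value was the higher in both replicates, by a narrow margin in replicate 2 (833 against 831), and with 2 replicates and unknown depth no error could be put on these differences. A wider step followed to Chro, which encodes a chromatin protein of the interbands and the mitotic spindle, at 1484 (861 and 622). The peak 493 bp upstream of ph-p, a Polycomb group gene, had 1433 (799 and 648). The wing vein gene px had 1414 (794 and 619) and CG1888 1308 (720 and 590). These 5 peaks are the ones most like the Ugalt peak by pooled signal, from 0.823% to 27.3% below it. All of them lay within 500 bp of a start, as did 44.2% of all reproducible peaks, and no share was computed for strong peaks alone.

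**Figure D2:**
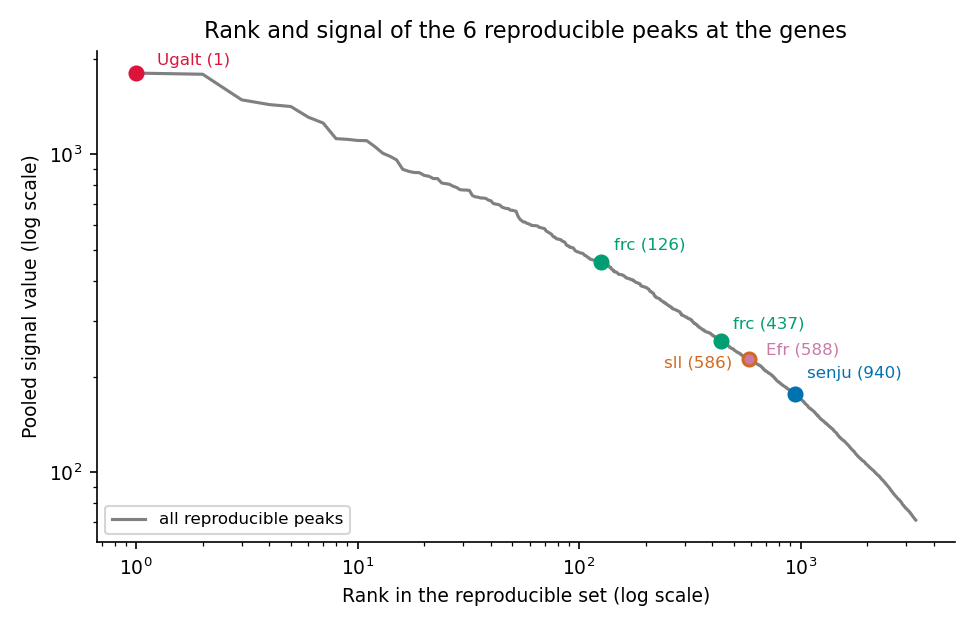
Pooled signal value against rank for the reproducible set, both on log scales. The grey line is all 3314 peaks and the coloured points are the 6 peaks at the transporter genes, with their ranks in parentheses. Ugalt is at rank 1, and the others lie between rank 126 and rank 940, where sll and Efr fall almost on 1 point.

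senju (FBgn0031676, chromosome 2L, 5052843 to 5054575, plus strand) encodes a Golgi protein similar to UDP-galactose transporters that acts in Toll signalling. Its reproducible peak spanned 5052395 to 5052545, with the summit 356 bp upstream of the single annotated start. The signal was 103 in replicate 1, 67.3 in replicate 2 and 176 pooled, which ranked 940. The summit also lay in an intron of eIF3h, a translation initiation factor subunit transcribed the other way, 293 bp inside one of its starts. A weaker entry stood closer to senju, 83 bp upstream, in the 5′ UTR of eIF3h. It had a pooled signal of 55.1 and 40.4 in replicate 1, and no replicate 2 entry held its summit. The closest starts of senju and eIF3h are divergent and 63 bp apart, and another eIF3h start lies 251 bp inside senju. Neither summit can therefore be assigned to 1 of these genes by position. Another entry, 736 bp past the end of senju in the coding sequence of the histone gene His3.3A, had 26.7 pooled and 14.8 in replicate 1 only.

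frc (FBgn0042641, chromosome 3L, 17428936 to 17433190, minus strand) encodes a Golgi transporter of UDP-sugars needed for Fringe-dependent Notch modification and for heparan sulfate. It was the only gene of the 7 with 2 reproducible peaks, 1 beyond each end. The upstream peak, 17433635 to 17433905, had 269 in replicate 1, 189 in replicate 2 and 460 pooled, and ranked 126. Its summit lay 604 bp upstream of the frc start but 74 bp from the start of CG32176 and 173 bp from a start of Coq4, which encodes a protein of coenzyme Q synthesis. Coq4 also has a start at the same base as frc. The downstream peak, 17428843 to 17428978, had 146 in replicate 1, 114 in replicate 2 and 258 pooled, and ranked 437. That summit lay 28 bp past the frc end and 72 bp upstream of Gorab, a golgin gene transcribed in the same direction, with Polr3G, an RNA polymerase III subunit gene, 1778 bp away. Both frc peaks were thus nearer to starts of other genes. A further pooled entry 1503 bp upstream had 22.4, with 21.3 in replicate 2 and none in replicate 1.

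sll (FBgn0038524, chromosome 3R, 17606106 to 17608541, plus strand) encodes the Golgi transporter of PAPS, on which sulfation of heparan sulfate and other glycans depends. Its peak, 17604243 to 17604606, had 138 in replicate 1, 86.4 in replicate 2 and 227 pooled, and ranked 586. The summit was in intergenic sequence 1681 bp upstream of the sll start. It was the one reproducible peak of the 6 with no start of any gene within 500 bp, and no other gene began within 2 kb of it. Its nearest reproducible neighbour was 53116 bp away, the widest gap of the 6. A weak pooled entry in the sll coding sequence, 1319 bp inside the gene, had 24.0, with 17.3 in replicate 1 only.

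The GDP-fucose transporters Gfr and Efr serve the Golgi and the ER respectively, and Efr contributes to O-fucosylation of Notch in the ER. Efr (FBgn0029849, chromosome X, 6219957 to 6222719, plus strand) had 1 reproducible peak in its window, 6224193 to 6224556. The signal was 128 in replicate 1, 98.5 in replicate 2 and 227 pooled, which ranked 588. The summit was 1656 bp past the end of Efr and in an intron of sqh, the gene of the non-muscle myosin II regulatory light chain, 145 bp inside one sqh start and 218 bp upstream of another. The first start of dtn was 1272 bp away. Nothing reproducible lay nearer to Efr itself. Gfr (FBgn0265351, chromosome 3R, 8302686 to 8304023, minus strand) is the shortest of the 7 genes and had no reproducible peak in its window. Its strongest pooled entry, 1400 bp upstream and 149 bp upstream of Sgt1, a co-chaperone gene, had 37.7 pooled and 33.3 in replicate 1, and no replicate 2 entry held the summit. The other entries at Gfr had 25.0 beyond its end, 71 bp upstream of the mitochondrial ribosomal protein gene mRpL1 and 391 bp upstream of CG9626, and 22.9 in its coding sequence. The replicate 2 value of the first was 15.5, and no replicate entry held the summit of the second.

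meigo (FBgn0250820, chromosome 3R, 21138270 to 21140365, plus strand) encodes an ER protein of this transporter class that is required for dendrite targeting of olfactory neurons. Its pooled entry had a signal of 67.0, with 31.0 in replicate 1 and 34.1 in replicate 2. It was the only weaker entry of the 8 held in both replicates. The summit lay in the 5′ UTR, 290 bp inside the first start and 132 bp upstream of the second. The entry ranked 3568, 254 places below the weakest reproducible peak (70.79), and the strongest pooled entry outside the set had 70.78. The reproducible set was exactly the 3314 strongest pooled entries, and every entry at Gfr and meigo had a lower pooled signal. None of the Gfr entries had its summit inside an entry of both replicates, and why these genes fall outside the set was not tested.

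**Figure D3:**
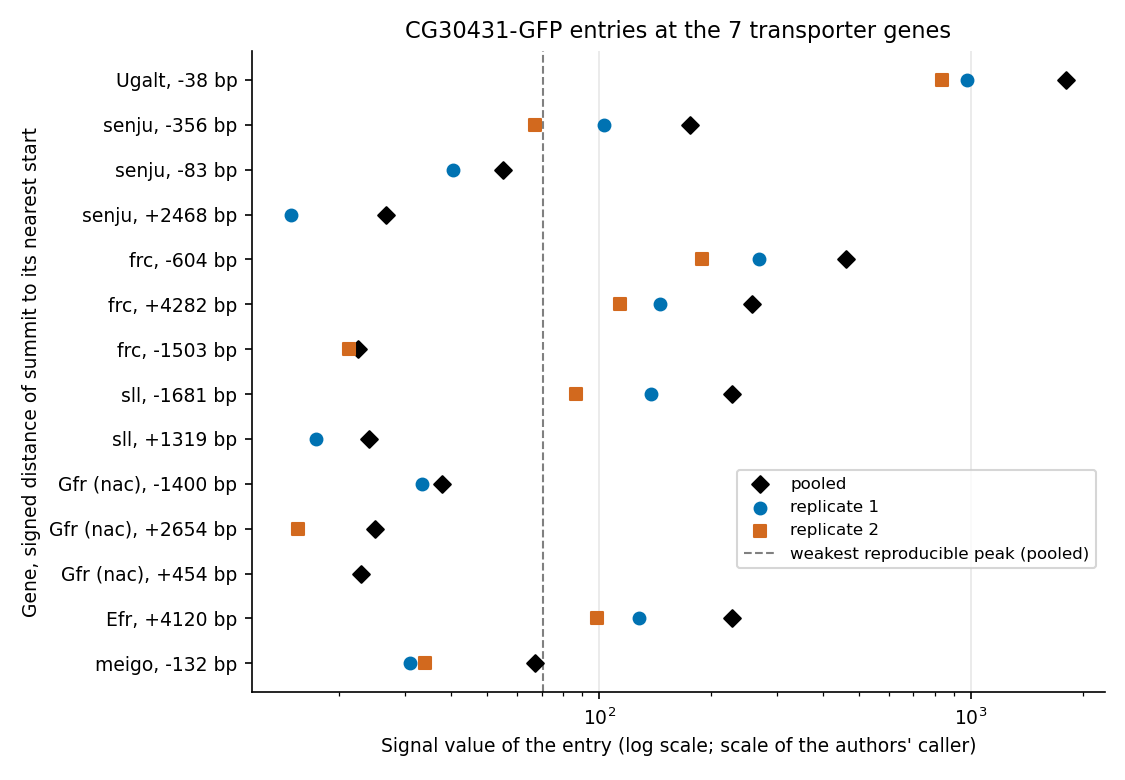
Signal value of each entry at the 7 genes, on a log axis, with 1 row per pooled entry named by gene and signed distance in bp to its nearest start. Diamonds are pooled values, circles replicate 1 and squares replicate 2, and a missing symbol means that no entry of that replicate held the summit. The dashed line is the weakest reproducible peak. Diamonds of the 6 reproducible peaks lie between 176 and 1800, and those of the weaker entries between 22.4 and 67.0.

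Of the 14 pooled entries in these windows, the 6 reproducible peaks had a value in both replicates. Of the 8 weaker ones, 1 was held in both replicates, 6 in 1 replicate and 1 in neither. No such share was computed over all weaker pooled entries, so whether this is unusual is not known. The replicate lists each hold 30000 entries that reach down to 14.2 and 11.5, background included, so an entry of 1 replicate near those values is not distinguished from background here. The replicate lists held 7 more entries in these windows with no pooled summit inside, from 13.3 to 19.0. The ratio of replicate 1 to replicate 2 was 1.17 at Ugalt, 1.28 and 1.42 at frc, 1.30 at Efr, 1.53 at senju and 1.60 at sll. Over the 3267 reproducible peaks with both values, the ratio had a median of 1.34 and quartiles of 1.13 and 1.63, so all 6 fell between the quartiles. The meigo entry, with a ratio of 0.909, lay below the lower quartile but above the 5th percentile (0.811). Replicate summits of the 6 peaks were at most 16 bp from the pooled summit.

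**Figure D4:**
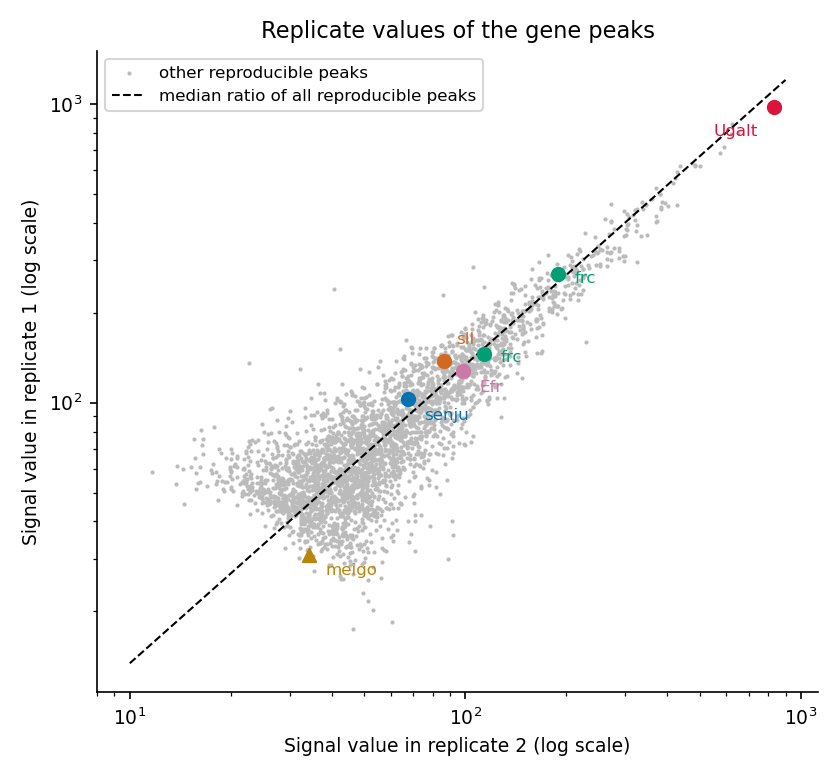
Replicate 1 against replicate 2 signal for reproducible peaks, both on log axes. Grey points are reproducible peaks, coloured circles the 6 peaks at transporter genes, the triangle the meigo entry, and the dashed line the median ratio of 1.34. The circles follow the line, and the triangle lies below it.

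The letters under the peaks differed from gene to gene. CACTG, on either strand, occurred within 100 bp of the summit in 3 of the 6 peaks, both at frc and the one at sll, beside 51.0% of all reproducible windows and 36.9% of the 19275 windows of the same length around starts of protein-coding genes. In the sequences printed above, the upstream frc peak has it 55 bp upstream of the summit and again 133 bp downstream, and the downstream frc peak 15 bp downstream of its summit. At sll it was 71 bp upstream. The Ugalt window had none within 100 bp, and its single match was 137 bp upstream of the summit, at the left end of the printed stretch. At Efr the matches were 104 and 120 bp upstream and 121 bp downstream. No match lay within 150 bp of the senju summit. Of the 6 strongest peaks of the whole set, those at CG14100 and px had 1 match each within 100 bp and the other 4, Ugalt among them, had 0. The core was present in 56.0% of the 50 strongest peaks.

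Longer sequences were rarer. Among 4 overlapping 8-base sequences that contain the core, from the same earlier analysis, CACTGTGC was in 5.82% of peak windows and 0.991% of start windows. The shares were 5.79% and 0.825% for CACAGTGG, 4.74% and 0.649% for CACTGAGA, and 4.19% and 0.472% for TACACTGA. Both strands were searched, and CACAGTGG read on the other strand overlaps CACTGTGC by 7 letters. Within 100 bp, 1 of the 6 peaks, the downstream frc peak, held an exact match, CACTGTGC on the opposite strand, beside 14.3% of all reproducible windows with any of the 4. Within 150 bp, the upstream frc peak (CACTGTGC and CACAGTGG overlapping) and the Efr peak (CACAGTGG) also held one, so 3 of 6 did, beside 19.1%. Within 100 bp, TATCGATA (the DNA replication-related element, DRE) was in 2.08% of peak windows and 6.44% of start windows. GGTCACAC (the core of promoter Motif 1) was in 1.51% and 5.68%, and CACGTG (an E-box) in 1.81% and 2.80%. No share within 150 bp was computed for these sequences. None of these occurred within 150 bp of the 6 reproducible summits, which says little where shares are this low. Among the weaker entries, the Motif 1 core occurred 136 bp upstream of the meigo summit and the DRE 67 bp from the Gfr entry upstream of Sgt1. CACTG was within 100 bp of the summit at meigo, all Gfr entries and the senju entry 83 bp upstream, but not at the other weaker entries. The Gfr entry in its coding sequence also held an exact CACAGTGG there. A match describes letters only and was not tested as a site.

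Base composition varied as widely. The sequence within 100 bp of the Ugalt summit was 46.3% G and C, above 93.5% of reproducible windows, and the senju window was 42.3%, above 84.1%. The Efr window (35.8%) was at the middle of the set, whose median was 35.3% with quartiles of 31.8% and 39.3%. The frc windows had 33.8% and 30.3%, the sll window 30.8% and the meigo window 27.4%. The median of protein-coding start windows was 42.3%.

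Other genes of the same pathway were taken from 5 lists with 69 genes in the annotation. A reproducible promoter peak was present at 16 of them (23.2%, exact binomial 95% interval from 13.9% to 34.9%, which covers only the number of genes), beside the 12.8% of all protein-coding genes given above. In the gene body or within 2 kb, 29 of the 69 (42.0%) had one, beside 25.4% of all protein-coding genes. A longer gene has a wider window, and no share at matched gene length was computed for these lists. These are descriptions with no test, and the lists were drawn up with earlier results of these data known. Of the other transporters, Papst2, which carries PAPS, and CG14971, neither of the 2 had a promoter peak.

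Enzymes that make the transported donors had a promoter peak at 5 of 21 genes (23.8%), beside 12.8% of all protein-coding genes. The exact binomial 95% interval of that list, from 8.22% to 47.2%, includes that share. The strongest was at Gmd, the dehydratase that starts GDP-fucose synthesis, with 179 and 113 in replicates 1 and 2 and 292 pooled, 197 bp from a start. Gmppa and Gmppb, related to the subunits of the enzyme that makes GDP-mannose, had 169 and 113 (287 pooled) and 67.1 and 52.3 (114 pooled). Pgm1, a phosphoglucomutase, had 68.1 and 81.9 (141 pooled), the only one of the 16 peaks that was higher in replicate 2. Gnpnat, an acetyltransferase of UDP-GlcNAc synthesis, had 41.5 and 32.3 (74.3 pooled), just above the end of the set. The donor enzymes with a peak thus ranged from 74.3 to 292, around the median of 121 for the reproducible set.

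Glycosyltransferases of Notch and other EGF or thrombospondin repeats had a promoter peak at 2 of 6 genes (33.3%), beside 12.8% of all protein-coding genes. They were Eogt, the EGF-domain O-GlcNAc transferase, with 202 and 149 (351 pooled), and rumi, the O-glucosyltransferase of Notch, with 96.1 and 77.8 (177 pooled). The Eogt summit was 47 bp and the rumi summit 64 bp from a start. Enzymes of glycosaminoglycan assembly had one at 4 of 14 (28.6%), beside the same 12.8%. These were the sulfotransferase genes Hs2st (157 and 130, 278 pooled) and Hs3st-A (55.0 and 41.8, 97.9 pooled), the xylosyltransferase gene oxt (111 and 96.4, 206 pooled) and the heparan sulfate polymerase gene sotv (68.9 and 32.4, 101 pooled). The remaining enzymes of N-glycans, O-glycans and glycolipids had one at 5 of 26 (19.2%), again beside 12.8%. C1GalTA, the galactosyltransferase of core 1 O-glycans that uses UDP-galactose, had 128 and 122 (253 pooled). The glycolipid mannosyltransferase gene egh had 134 and 111 (244 pooled). beta4GalNAcTB, a glycolipid N-acetylgalactosaminyltransferase gene, had 103 and 41.5 (149 pooled). Pgant4, which begins mucin-type O-glycans, had 51.4 and 50.9 (105 pooled), and rt, a protein O-mannosyltransferase gene, 52.5 and 38.5 (95.2 pooled). Eogt had the strongest of the 16 promoter peaks and Gnpnat the weakest.

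**Figure D5:**
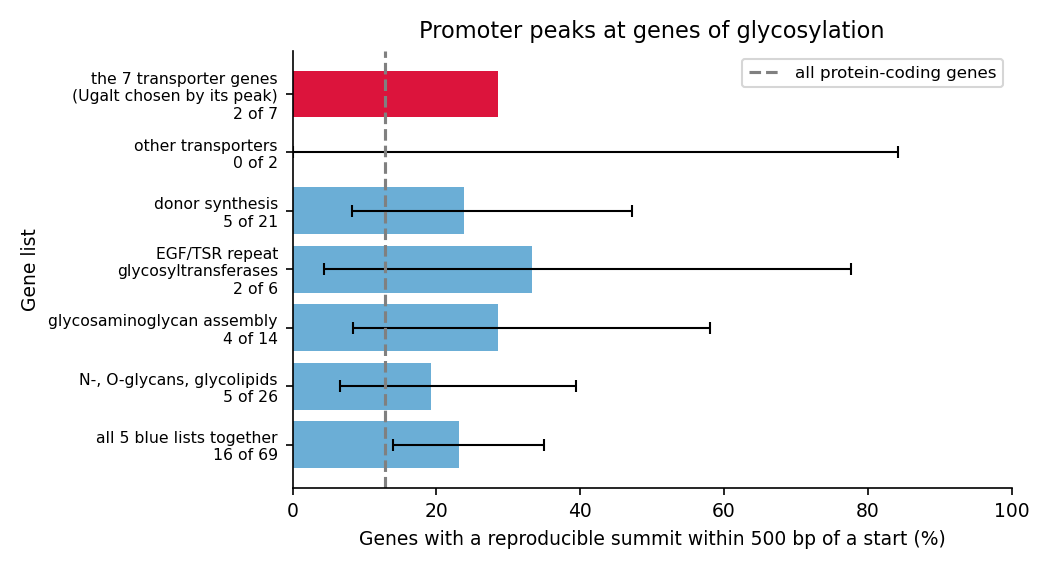
Share of genes in each list with a reproducible summit within 500 bp of a start, in percent. Blue bars are the 5 other lists and all of them together, with exact binomial 95% intervals that cover only the number of genes, and the dashed line is all protein-coding genes (12.8%). The red bar is the 7 transporter genes (28.6%), shown without an interval because Ugalt was chosen by its peak; without Ugalt the share is 16.7%. The blue bars of single lists reach from 0% to 33.3%, and each of those 5 intervals spans the dashed line. The interval of the 5 lists together, 13.9% to 34.9%, lies above the line. The lists were drawn up with earlier results of these data known, and no test was made.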

How the data were processed

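ChIP-seq of CG30431-GFP was done in whole embryos, with chromatin sheared by sonication to 200 to 800 bp, per the labels. The authors deposited peak lists on dm6 and dm3, each entry with a signal value of unstated scale. The authors called a list for each replicate against a control and another for the pooled replicates, and kept a reproducible set by irreproducible discovery rate (IDR), per the deposited readme and file names. The deposited −log10 of the q-value was 3.57 at all 6 reproducible peaks described. The sources used here do not give the aligner, the caller, the tool versions or the IDR cut-off. Signal values were used only to describe and rank entries within a list, and the pooled and replicate values of an entry were set side by side without rescaling. Most entries have a fixed width, and no read counts were used, so depth and its precision are unknown.

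A replicate's value is that of its strongest entry holding the pooled summit. Starts and gene bodies came from Ensembl release 115 (BDGP6.54) and sequence from the RefSeq Release 6 genome. Motifs were exact matches on both strands within 100 bp of the summit, with 150 bp given where it adds matches. Shares over all protein-coding genes or all reproducible peaks are given for comparison and do not replace a test. Distance rules were checked on simulated peaks. The source label put both samples in 1 group. The genes, lists and motifs were chosen with earlier results of these data known. The named genes are the 7 transporters, genes with a start within 2 kb of their summits, the 5 peaks next below Ugalt, and up to 5 genes with a promoter peak in each other list. Of 73 names in those lists, 4 matched no symbol in the annotation used here. Alternatives covered the distance to the start, the flank, single replicates, the stronger part of the set, all pooled entries and the motif window. Python 3.11.15 was used with numpy 2.4.6, pandas 2.3.3, scipy 1.17.1 and matplotlib 3.10.9.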

Additional observations from a re-analysis of the deposited data

How the results depend on the processing

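The Ugalt peak ranked 1 in each replicate list alone. The count of transporter genes with a promoter peak, 2 at 500 bp, was 1 within 200 bp (Ugalt), beside 8.25% of all protein-coding genes, and 4 with all pooled entries (Gfr and meigo added), beside 36.0%. It was 3 within 1000 bp (15.1%) or by any overlap (13.8%), where frc was added, and 2 in the stronger part of the set (7.64%). Leaving out 1 replicate gave 2 to 3 (12.6% to 12.8%), with meigo added in the strongest entries of replicate 2. The count in the body or within 2 kb, 5, was 3 with a flank of 1 kb, which drops sll and Efr, beside 20.6%, and 5 with 5 kb, beside 36.5%. It was 5 in the stronger part of the set (15.5%) and 5 to 6 on leaving out 1 replicate (25.3% to 25.4%), again with meigo added. All these counts include Ugalt. The pathway lists' count of 16 of 69 genes was 11 within 200 bp, beside 8.25% of all protein-coding genes, and 20 within 1000 bp, beside 15.1%. On leaving out 1 replicate it was 16 to 18, beside 12.6% to 12.8%. The core was in 1 of 6 peaks within 50 bp, beside 24.1% of all reproducible windows, and in 5 within 150 bp (all but senju), beside 63.8%. Allowing 1 mismatch to the 8-base sequences, an alternative chosen after seeing the data, gave 4 of 6 peaks (Ugalt, both at frc, and sll) beside 54.5% of reproducible windows and 36.8% of start windows. All 12 replicate signals of the 6 reproducible peaks were the same under the strongest overlapping entry. Some weaker entries changed. The senju entry 83 bp upstream took 103 and 67.3, the values of the reproducible senju peak. In replicate 1, the Gfr entry beyond its end gained 14.3 and the one in its coding sequence 16.6. How many weaker entries count as held in both replicates thus depends on this rule. No paired analysis was possible because there is 1 group and no result comes from a test. Peak position alone does not separate a transporter gene from its neighbours at senju, frc and Efr, and with unknown depth and 2 replicates no interval on a signal could be given.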
